A study of Rattus norvegicus with 52 samples.

Results

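Of the 2748 Pr peaks called in *Cdkn1b*-/- mammary cells, 761 overlapped no peak of *Cdkn1b*+/+ cells. These KO-only peaks are the rows of the *Cdkn1b*-/- (KO) peak list that share not even 1 base with a row of the *Cdkn1b*+/+ (WT) list. The WT list held 5251 peaks. The rule uses the positions of called peaks, but whether a site is called depends on its strength. KO-only peaks made up 27.7% of the KO list, and this share is the background for the counts below. The other 1987 KO peaks overlapped a WT peak, and 3271 WT peaks, or 62.3% of that list, overlapped no KO peak.

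The progesterone receptor (Pr, encoded by *Pgr*) is a transcription factor of the steroid receptor family. After binding progesterone it attaches to DNA at hormone response elements, often far from the genes it regulates, and it needs chromatin that partner factors have opened. In the mammary gland Pr is found in a subset of luminal cells, which respond to the hormone by sending growth signals such as Wnt4 and Rankl to their neighbours. *Cdkn1b* encodes p27, an inhibitor of the cyclin-dependent kinases that drive the cell cycle.

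Pr was precipitated from dissociated mammary organoids of rats bred to ACI, an inbred strain prone to oestrogen-induced mammary tumours. There was 1 library from *Cdkn1b*+/+ and 1 from *Cdkn1b*-/- females, which the study's text gives as 9 weeks old. The deletions were made in outbred Sprague-Dawley rats and backcrossed to ACI, and the study took mammary glands from early and late backcross generations. Its text does not give the generation or the deletion allele of each library. The knockout is carried by every cell of the animal, and the organoids hold luminal and basal cells together, so the peaks are those of a mixture. RNA was sequenced from sorted cells of 9-week-old rats of the same genotypes and breeding. Luminal progenitors (LP, Cd24+ Cd29 low cells that bind the lectin PNA or carry Cd49b) had 4 libraries of each genotype. With 1 ChIP library per genotype there is no replicate spread, so no difference between the peak classes was tested, and every value of a peak is a description of these libraries. The distinction between KO-only and overlapping peaks rests on the peak calls themselves. The strengths and widths below are therefore values that took part in the choice.

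KO-only peaks were weaker than the KO peaks that overlapped a WT peak. Their median fold enrichment over background was 5.29, with quartiles of 4.34 and 6.53 and a range from 1.69 to 18.02. The overlapping KO peaks had a median fold of 6.75, with quartiles of 5.06 and 9.52 and a highest value of 59.5. The -log10 q, a measure of how far a peak stands out from background after correction for the many sites examined, had a median of 6.78 in KO-only peaks and 12.8 in overlapping KO peaks. The highest KO-only value was 53.8, against 263 among overlapping peaks. In strength KO-only peaks lay close to the WT peaks that overlapped no KO peak, whose median fold was 5.41 and whose median -log10 q was 6.84.

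**Figure D1:**
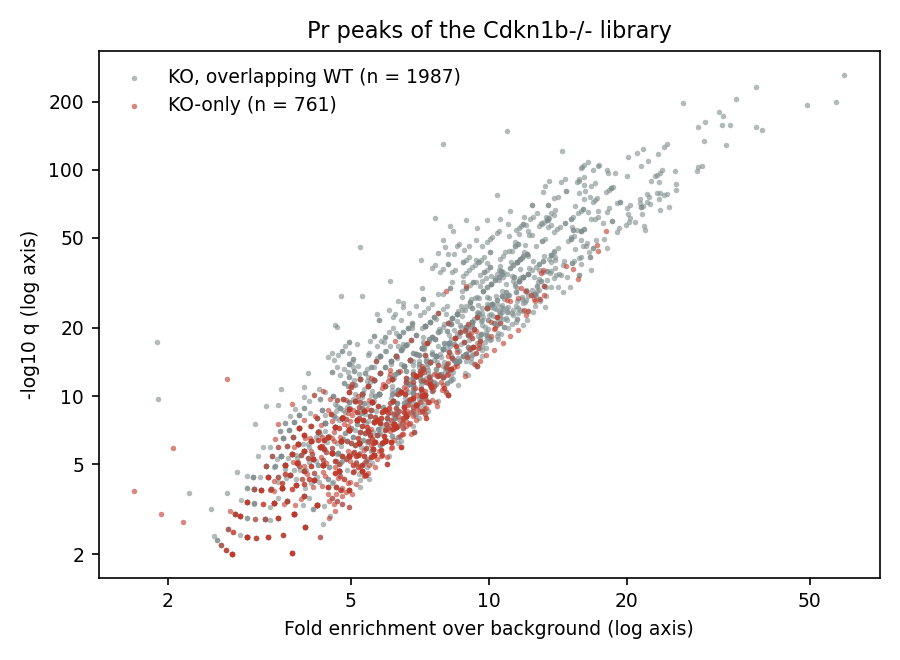
Each point is a Pr peak of the *Cdkn1b*-/- library, with its fold enrichment on the x axis and its -log10 q on the y axis, both logarithmic. The 761 KO-only peaks (red) fill the lower left and reach a fold of 18.02, and the 1987 peaks that overlap a WT peak (grey) reach 59.5.

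Few KO-only peaks were strong. A fold of at least 10 was reached by 33 of the 761, or 4.34%, and by 444 of the 1987 overlapping KO peaks, or 22.3%. A -log10 q of at least 20 was also reached by 33 KO-only peaks, and by 640 overlapping ones. At the weak end, a fold under 3 was found for 30 KO-only peaks and for 34 overlapping peaks, which is 3.94% and 1.71% of each class.

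The share of KO-only peaks fell from the weakest to the strongest peaks. When the KO list was ordered by -log10 q and split into 10 groups of 274 or 275 peaks, KO-only peaks made up 50.5% of the weakest group, with -log10 q up to 4.41. They made up 34.9% of the group that ended at 10.2 and 11.7% of the group that ended at 16.4. Only 3 of the 275 strongest peaks, or 1.09%, were KO-only. None of the 100 KO peaks with the highest -log10 q was KO-only, and of the first 200 it was 1. The first KO-only peak stood at rank 175, and 21 of the first 500 and 77 of the first 1000 were KO-only. The WT list also had few unique peaks at its top. None of its first 200 peaks lacked a KO partner, and its first unique peak stood at rank 245. Among its first 500, 1000 and 2000 peaks 1.6%, 10.5% and 31.5% were unique, against 4.2%, 7.7% and 19.95% in the KO list. The lists differ in length, so equal ranks are not equal positions.

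**Figure D2:**
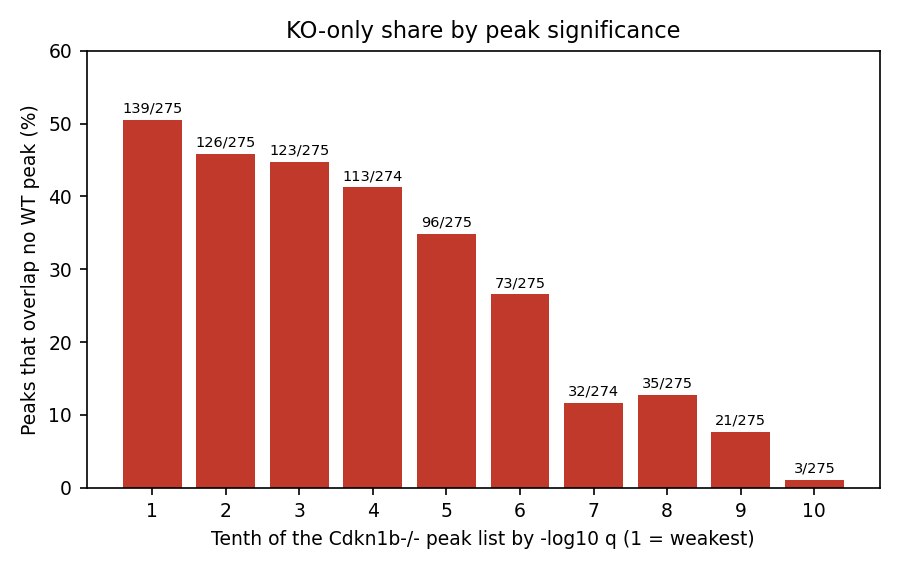
Bars give the percent of *Cdkn1b*-/- peaks that overlap no WT peak, in 10 groups of equal size ordered by -log10 q from the weakest (1) to the strongest (10), with the KO-only and total number of peaks above each bar. The share falls from 50.5% to 1.09%.

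The number of DNA fragments behind each peak was recovered from its fold and p. MACS2, the peak caller, computes the fold as the fragment pileup plus 1 over the expected background plus 1, and the p from a Poisson distribution with that background. These relations gave a whole number of fragments, within 0.001, for all 2748 KO peaks and for 5246 of the 5251 WT peaks. A median KO-only peak held 23 fragments at its summit, with quartiles of 18 and 27, over an expected background of 3. A median overlapping KO peak held 31 fragments, with quartiles of 24 and 43. In the WT library the median was 18 for WT-only peaks and 29 for peaks that overlapped a KO peak.

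The KO-only share was highest among KO peaks with few fragments. Of the 45 KO peaks with 12 to 14 fragments, 31 were KO-only, or 68.9%. Between 20 and 29 fragments 398 of 1127 were, or 35.3%, and between 40 and 59 fragments 20 of 352, or 5.68%. Only 4 of the 263 KO peaks with 60 or more fragments were KO-only.

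**Figure D3:**
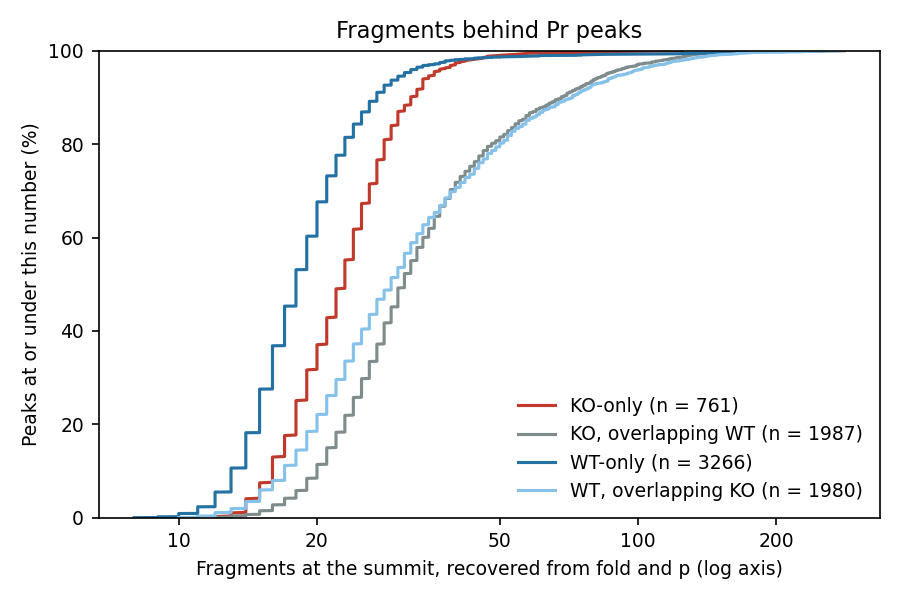
Cumulative percent of peaks (y axis) by the number of fragments at the summit (x axis, logarithmic), for both classes of each library. The curves of KO-only peaks (median 23) and WT-only peaks (median 18) rise before those of the overlapping peaks (medians 31 and 29).

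The libraries differed in depth. The lowest background, which MACS2 takes from the genome-wide density of fragments, was 1.31 in the KO library, after a scaling of 0.992, and 1.07 in the WT library. If the same fragment length and genome size were set for both, the KO ChIP library held 1.23 times the fragments of the WT library. The WT list was nevertheless 1.91 times as long. At sites called in both, the fold was higher in the KO library for 549 of 1987 KO peaks, or 27.6%, with medians of 6.75 in KO and 8.78 in WT. Depth and enrichment differ between the libraries together with genotype, and their parts in the KO-only class cannot be told apart from it.

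The strongest KO-only peak lay on chromosome 12 (chr12:39013342-39013730, rn6), with a fold of 18.02, a -log10 q of 53.8 and 58 fragments over a background of 2.25. The nearest WT peak was 51061 bases away. Next by fold came a peak of 575 bases on chromosome 10 (chr10:37491223-37491797), the widest KO-only peak, with a fold of 17.3 and 47 fragments. A WT peak with a fold of 12.3, which itself overlapped another KO peak, ended 950 bases before it. A peak on chromosome 6 (chr6:59978476-59978736) had a fold of 17.2 and 51 fragments, with 171872 bases to the nearest WT peak. These 3 were also first by -log10 q.

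The other KO-only peaks among the 10 of highest fold lay on chromosome 10 (chr10:52754000-52754398, fold 15.7), chromosome 14 (chr14:84589118-84589479, 15.3), chromosome 1 (chr1:190870494-190870932, 14.7), chromosome 15 (chr15:20059786-20060171, 13.2), chromosome 3 (chr3:1546529-1546788, 13.2), chromosome 11 (chr11:51141357-51141699, 13.1) and chromosome 2 (chr2:31759252-31759624, 13.0). The 10 peaks held 35 to 58 fragments and stood between ranks 175 and 445 of the KO list by -log10 q. Apart from the wide peak on chromosome 10, each was more than 10 kb from any WT peak, and 5 were more than 100 kb away. By -log10 q, 9 of the 10 highest were the same peaks, and the other lay on chromosome 16 (chr16:20357875-20358203), with a fold of 8.93 and 54 fragments over a background of 5.11. The 33 KO-only peaks that reached a fold of 10 were spread over 15 chromosomes, and 29 of them were more than 10 kb from a WT peak.

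Some weak KO-only peaks lay where the control also had many fragments. The 2 peaks of lowest fold were both on chromosome 17. The first (chr17:89414856-89415011) had a fold of 1.69, with 125 fragments over a background of 73. The second (chr17:89437939-89438129) had a fold of 1.93, with 69 over 35. A background of 10 or more was found for 11 of the 761 KO-only peaks, and 9 of these had a fold under 3. Such a background was also found for 60 of the 1987 overlapping KO peaks, 17 of them with a fold under 3, and for 43 of the 3266 WT-only peaks with recovered fragments.

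At the border of the class, a KO-only peak on chromosome 12 (chr12:23760847-23761094, fold 2.98) touched a WT peak of fold 5.05 without sharing a base. Others lay 2 bases from a WT peak on chromosome 3 (chr3:163814893-163815051, fold 3.54, against 3.83 in WT) and 4 bases from one on chromosome 20 (chr20:4079937-4080224, fold 7.09, against 5.64 in WT). Just inside the overlapping class were 2 peaks of chromosome 2 that shared 3 bases with a WT peak (chr2:62104025-62104193, fold 4.67, and chr2:148892067-148892240, fold 4.37) and a peak of chromosome 7 that shared 8 (chr7:98770449-98770690, fold 3.97).

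The median gap from a KO-only peak to the nearest WT peak was 66077 bases, with quartiles of 17115 and 204632. From a WT-only peak to the nearest KO peak the median was 137895 bases, and 331 of 3271 had one within 10 kb. The WT list is the longer, so these gaps were not measured against equal numbers of peaks. The gap for sites placed at random was not computed. A WT peak lay within 1 kb of 41 KO-only peaks, or 5.39%, within 10 kb of 137 and within 100 kb of 449. Of the 41 nearest cases, 27 faced a WT peak that overlapped no KO peak, and the KO fold was the higher of the pair in 11. The median fold was 4.76 for the 41 peaks within 1 kb, 5.20 for the 96 between 1 and 10 kb, 5.41 for the 312 between 10 and 100 kb and 5.33 for the 312 beyond.

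**Figure D4:**
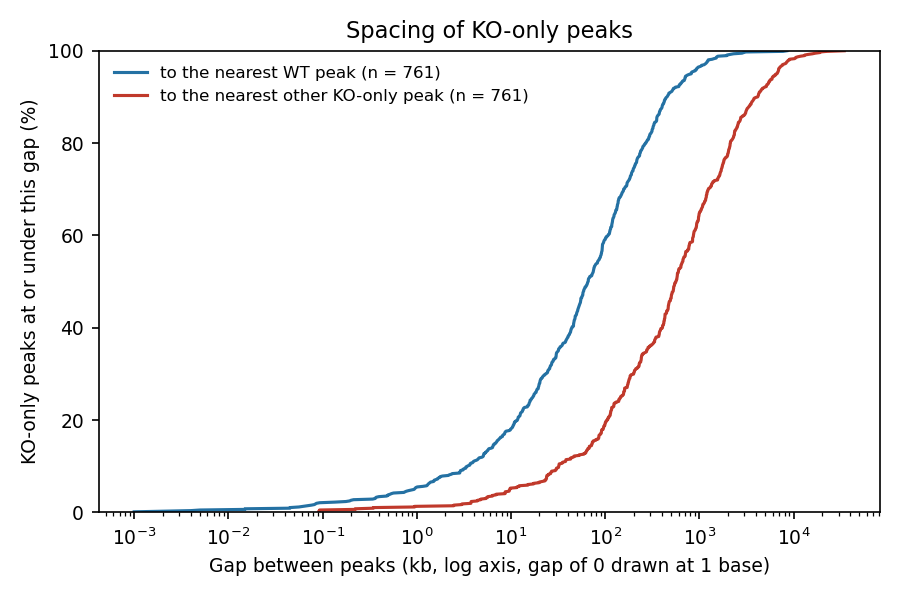
Cumulative percent of the 761 KO-only peaks (y axis) by the gap to the nearest WT peak (blue) and to the nearest other KO-only peak (red), in kb on a logarithmic axis. The median gap is 66077 bases to a WT peak and 563349 bases to another KO-only peak.

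KO-only peaks were mostly single. The nearest other KO-only peak was a median of 563349 bases away, and 721 of the 761 had no other within 10 kb. The rest formed 20 pairs. The pair that held the strongest member was on chromosome 10 (chr10:37491223-37492330), where the peak of fold 17.3 was followed by one of fold 5.83. In windows of 1 Mb, 406 held 1 KO-only peak and 105 held 2, and the most in any window was 5. This was reached on chromosome 1 (276 to 277 Mb) and chromosome 20 (8 to 9 Mb), each with 8 KO peaks and 6 WT peaks in all.

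All 761 peaks were on the assembled autosomes and X. By number, chromosome 1 held the most (74), followed by chromosomes 5 (68) and 10 (60), and X held 3. As a share of the KO peaks of a chromosome, KO-only peaks ran from 21.6% on chromosome 13 (19 of 88, 95% exact Clopper-Pearson interval 13.5 to 31.6%) to 35.8% on chromosome 9 (43 of 120, 27.3 to 45.1%). These intervals, which cover counting error only, overlap, and both include the 27.7% of the whole list. Among all chromosomes, only the interval of chromosome 5 (68 of 198, 34.3%, 27.8 to 41.4%) excluded that share, by a small margin. No correction was made for the number of chromosomes.

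KO-only peaks were narrow, but width took part in the choice, since a wider peak has more bases that can meet a WT peak. Their median width was 191 bases, against 273 in overlapping KO peaks and 218 in WT-only peaks. The shortest width in either list, 146 bases, was found for 68 KO-only peaks, or 8.94%, and for 56 overlapping KO peaks, or 2.82%. The summit lay near the middle of the peak in both classes, at a median of 48.8% and 49.7% of KO-only and overlapping peaks on a scale where the start is 0 and the end 100. It lay in the outermost 10% at either end of 35 KO-only and 22 overlapping peaks, or 4.60% and 1.11%.

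The position of the peaks relative to genes, and the sequence under their summits, were not analysed here. RNA was therefore read at the 8 genes that the study's text links to Pr peaks of *Cdkn1b*-/- cells, and the link itself was not checked. The text offers *Id3* as an example of a peak. *Pgr* and *Srebf1* were picked by the study because their RNA differed in these 9-week libraries, and *Gsk3b*, *Mfap5*, *Plpp3*, *Ghr* and a class IA regulatory subunit of PI3K, taken here as *Pik3r1*, because it differed at 6 weeks, so the list is not independent evidence of a direction. The 8 LP libraries held between 22619330 and 33859550 counts on genes. *Cdkn1b* itself had 1.80 to 2.40 CPM (counts scaled to library size by TMM) in the 4 KO libraries and 6.15 to 10.7 in the 4 WT libraries. By edgeR's quasi-likelihood test the log2 fold change of *Cdkn1b* was -1.95 with a standard error of 0.26 and an adjusted p of 0.0021.

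None of the 8 genes changed in LP at an adjusted p under 0.05 in edgeR's quasi-likelihood test, while 3.4% of all 12809 genes tested did. A count of 0 among 8 genes does not set them apart from that share. At an unadjusted p under 0.05 there were 2, *Pgr* and *Srebf1*, beside 18.3% of all genes. DESeq2, which called 8.14% of the genes it tested, called the same pair, *Srebf1* higher and *Pgr* lower in KO. The study's own calls used DESeq2 at a p under 0.05 with a fold change limit, which is a different threshold. The median log2 fold change of the 8 was -0.46, with 6 below and 2 above 0, and that of all genes was 0.03.

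*Pgr*, the gene of the receptor, was lower in each KO than in each WT library of LP. It had 31.4 and 28.8 CPM in PNA+ and 27.2 and 20.9 CPM in Cd49b+ cells of *Cdkn1b*-/- rats, and 66.8, 57.6, 54.0 and 41.7 CPM in the same populations of *Cdkn1b*+/+ rats. The groups did not overlap, as held in this direction for 5.74% of all genes. Its log2 fold change was -1.02, with standard error 0.34, with an adjusted p of 0.124 in edgeR, 0.0478 from DESeq2 and 0.0143 with edgeR on the 8 LP libraries alone. *Pgr* was not called in any fit that left out a library, nor with the replicate number as a block. In these sorted pools, fewer Pr-positive cells and less *Pgr* RNA per cell cannot be told apart. The study also stained mammary gland sections, and reported significantly fewer Pr-positive and almost no Foxa1-positive epithelial cells in KO rats. That staining was of protein in whole glands and not of the sorted pools. The 6 markers of hormone-sensing luminal cells, of which *Pgr* is one, summed to between 164 and 219 CPM in KO and between 287 and 406 CPM in WT LP, with *Ly6d* at or near 0 throughout. Their part in this difference was not tested. LP are named by their sort. The sum of 5 luminal progenitor markers, mostly *Csn3*, was not higher in LP than in mature luminal cells (Cd24+ Cd29 low without PNA or Cd49b). It was 11027 to 16545 CPM in WT LP and 24570 to 28872 CPM in WT mature luminal cells. In KO it was 11510 to 54202 and 25696 to 56158 CPM. The hormone-sensing sum in mature luminal cells was 142 to 162 CPM in WT and 61.4 to 248 CPM in KO.

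*Srebf1*, a transcription factor that turns on genes of lipid synthesis, had 655 to 1027 CPM in the KO and 250 to 679 CPM in the WT LP libraries. The groups overlapped in 1 place, where the lowest KO library (655) fell under the highest WT library (679). Its log2 fold change was 0.95, with standard error 0.33, with an adjusted p of 0.141 in edgeR and 0.0479 from DESeq2. Within WT, the libraries numbered 1 had 519 and 679 CPM and those numbered 2 had 250 and 288.

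*Id3*, an inhibitor of helix-loop-helix transcription factors, varied more within KO than between genotypes. Its KO values were 30.1 and 89.3 CPM in PNA+ and 39.7 and 198.7 CPM in Cd49b+ cells, and its WT values lay between 92.3 and 162 CPM. The highest value of all came from the second KO Cd49b+ library, and the other 3 KO libraries were under every WT library. In edgeR the log2 fold change was -0.57, with a standard error of 0.50 and an adjusted p of 0.591. Without that library it was -1.32, with an adjusted p of 0.0681 in edgeR. This fit is given because that library held the highest value, so it is a description only. It called 9.45% of all genes, against 3.4% in the main fit. The same library had the highest sum of 6 basal markers in LP, 1564 CPM, against 201.3 to 550.3 CPM in WT LP, and of 3 endothelial markers, 429 CPM, against 194 to 401 CPM in WT LP. In the other 3 KO libraries the endothelial sum was 63.6, 129 and 134 CPM, under every WT library, as *Id3* was. The part of these cells in the *Id3* levels was not tested.

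The other linked genes overlapped between genotypes. *Plpp3*, which codes for a lipid phosphatase, had a mean of 85.1 ± 35.5 CPM (SD, n = 4 libraries) in KO and 122 ± 24.4 CPM (SD, n = 4 libraries) in WT. These are PNA+ and Cd49b+ libraries together, which were not all independent. *Ghr*, the growth hormone receptor, had 16.7 ± 5.79 and 22.2 ± 14.2 CPM. *Gsk3b*, a kinase of the Wnt pathway, had 62.8 ± 16.1 and 65.2 ± 8.41 CPM, and *Pik3r1* 85.4 ± 15.5 and 74.9 ± 7.06 CPM. *Mfap5*, a protein of elastic microfibrils, was low in LP, with 0.28 to 2.44 CPM in KO and 1.74 to 3.91 CPM in WT. In edgeR their adjusted p-values ran from 0.373 for *Plpp3* to 0.930 for *Gsk3b*.

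**Figure D5:**
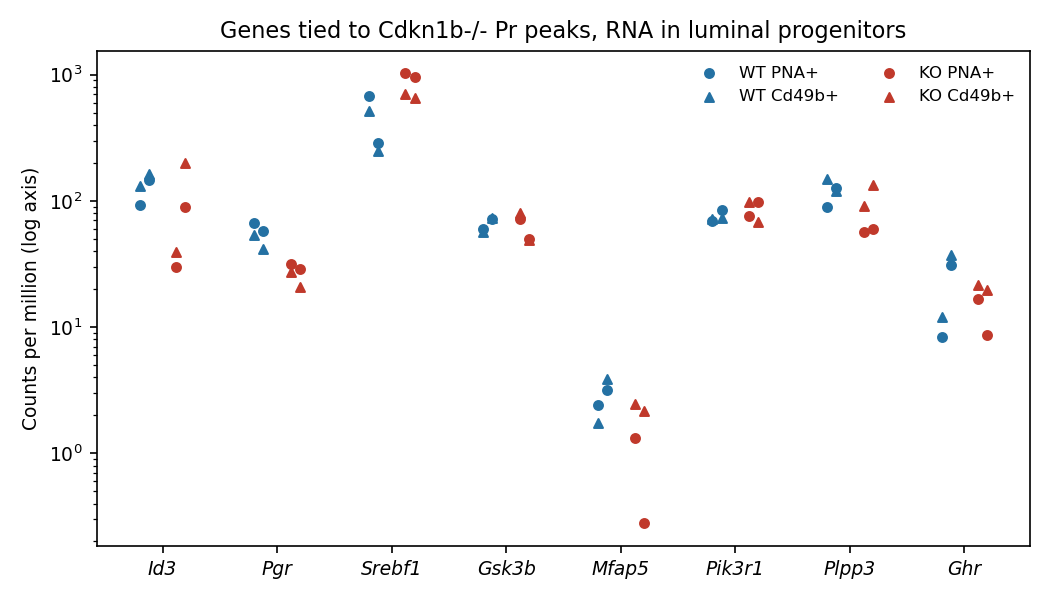
CPM on a logarithmic axis for the 8 genes linked to *Cdkn1b*-/- Pr peaks in luminal progenitors, one point per library, for WT (blue) and KO (red) rats, with circles for PNA+ and triangles for Cd49b+ cells. The genotypes do not overlap for *Pgr* and overlap for the other 7 genes.

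A list of 45 genes of the response to progesterone and related hormones, which includes *Pgr* and *Id3* but was not chosen for links to peaks, gave 41 that could be tested in LP. *Tnfsf11*, the gene of Rankl, was not among them, since it had 0 CPM in every LP library, so this signal was not assessed. Of the 41, 3 rose and 3 fell in KO at an adjusted p under 0.05 in edgeR's quasi-likelihood test, beside 2.12% and 1.29% of all genes. The list was set with earlier results of these data known. The study already reported lower *Esr1*, *Pgr* and *Foxa1* in KO cells, so these counts are a description only. *Fkbp5*, a chaperone of steroid receptors, rose by 1.72 on the log2 scale, with a standard error of 0.33, and the transcription factors *Cebpd* and *Tfap2c* rose by 1.02 and 0.87. *Cited1*, a coactivator of the oestrogen receptor, had a log2 fold change of -2.28, with a standard error of 0.46. *Foxa1*, which opens chromatin for steroid receptors, and the prolactin receptor gene *Prlr* had log2 fold changes of -1.34 and -1.19, and both are among the hormone-sensing luminal markers given above. The median over the 41 genes was -0.13. With PNA+ and Cd49b+ libraries summed, which leaves 2 samples per genotype, none of the 6 was called. Each of the 6 also lost its call in some fit without a single library. *Fkbp5* and *Cebpd* did so without the second WT PNA+ library, *Cited1* without the first KO Cd49b+ or the second KO PNA+ library, and *Foxa1*, *Tfap2c* and *Prlr* in most such fits.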

How the data were processed

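The authors called Pr peaks in each ChIP library with MACS2 2.1.1.20160309 on reads aligned to rn6. The labels name Bowtie and the study's methods the Burrows-Wheeler Aligner. Each deposited peak has a score made from its q-value, a ratio (fold enrichment over background), a -log10 p, a -log10 q and a summit offset. RNA counts per gene were made by the authors with STAR 2.5.1b and HTSeq on rn6 from low-input poly(A) libraries and deposited unnormalized, with 47.15 to 59.18% of the htseq-count tally in LP not assigned to a gene. Those tallies stayed out of library sizes.

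Peaks were intersected with bedtools 2.31.1 (at least 1 shared base) and described in Python 3.11.15. The 16 libraries of 9 weeks were fitted together in R 4.3.3 with edgeR 4.0.16 (TMM, filterByExpr, quasi-likelihood test, Benjamini-Hochberg threshold 0.05) in 6 groups of genotype and population, and with DESeq2 1.42.0 as an alternative. The scripts were tested on simulated data. Coordinates are 1-based.

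Nothing says that libraries came from separate animals, so p-values measure the spread between libraries. Libraries of the 2 LP populations with the same number correlated within a genotype (r of 0.63 in KO and 0.80 in WT, across genes), so 4 LP libraries are fewer than 4 independent samples. ChIP depth is known only relative to the other library.

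Peaks named are the 10 of highest fold, the 10 of highest -log10 q, and the 3 nearest to the border on either side. The peaks of lowest fold and the pair and windows with most members were added after their values were seen. The members and lists were chosen with earlier results of these data known. Alternatives were other overlap rules and thresholds, other normalization and filters, DESeq2, LP libraries alone, replicate blocks, summed libraries and leaving out each library.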

Additional observations from a re-analysis of the deposited data

Results flagged for a closer look

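One value stood far from the rest of its group. *Id4*, an inhibitor of helix-loop-helix transcription factors from the hormone list, had 56.1 CPM in the second KO Cd49b+ library, while the other 3 KO LP libraries had 4.35 to 12.7 CPM, a gap that takes up 0.839 of the group's range and passes Dixon's limit for 4 samples. Of 96 groups examined, this was the 1 marked, or 1.04%, where chance marks about 1 in 20. The log2 fold change of *Id4* in LP was -0.98 with an adjusted p of 0.368 in edgeR, and -2.12 with an adjusted p of 0.0031 in edgeR without that library. The second fit is given because the marked value was in the library left out, so it is a description only. It called 9.45% of all genes, against 3.4% in the main fit. *Id4* was higher in basal cells, at 157 to 175 CPM in KO and 243 to 283 CPM in WT, and that library had the highest sum of the 6 basal markers in LP, 1564 CPM against 201.3 to 550.3 CPM in the other 7 LP libraries. Their part in its *Id4* level was not tested.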

How the results depend on the processing

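The number of KO-only peaks, 761, lay between 720 and 841 under the other overlap rules. It was 560 with KO peaks of a -log10 q of at least 5, 520 with KO peaks of at least 20 fragments, an alternative added after seeing the data, and 33 with KO peaks of a fold of at least 10 against all WT peaks. It was 646 with a -log10 q of at least 5 in both lists. With a fold of at least 10 in both lists it was 141, of which 108 overlapped a WT peak of lower fold. With the WT list cut to the 2748 peaks of highest -log10 q, an alternative chosen after seeing the data, it was 1147. The median fold was 5.87 with KO peaks of a -log10 q of at least 5 and between 5.24 and 5.33 under the other overlap rules. For the 8 linked genes, DESeq2 gave 1 higher and 1 lower, the 8 LP libraries alone gave 1 lower, and no leave-one-out fit gave any. Their median log2 fold change stayed below 0 in every fit, from -0.25 to -0.66. For the hormone list, the number higher and lower was 5 and 8 with DESeq2, which called 1079 genes in all (8.14%, against 3.4% in edgeR), 3 and 6 with the LP libraries alone (449 genes, 3.97%), and 0 and 0 with summed libraries (5 genes). Leaving out a library gave 0 to 5 higher, with 0 without WT PNA replicate 2, and 0 to 5 lower, with 0 without KO Cd49b replicate 1.

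Same-numbered KO and WT libraries did not deviate together (r from -0.30 to 0.0014 over 4 pairs), so the main fit used no pairing by number. With so few libraries per group this check can miss a pairing. With the replicate number as a block, 671 genes in place of 436 were called, with 5 higher and 6 lower in the hormone list and none among the 8 linked genes. Crossed numbers, added after seeing the data, gave 1284 calls, 7 higher and 8 lower, and 1 linked gene higher. Over all genes the calls ran from 5 with summed libraries to 1284 with crossed numbers, with 1209 without KO Cd49b replicate 2 and 157 without WT PNA replicate 2. The cause of these changes was not tested. Assignment of peaks to genes, position relative to genes and response elements at summits were not run, since no sequence or annotation of rn6 was used here.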
